A study of Mus musculus with 18 samples.

Results

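Transcript counts were examined for the interaction between 25-hydroxycholesterol (25HC) and the lipopeptide Pam3CSK4 (PAM3) in bone marrow-derived macrophages of C57BL/6 (B6) mice. The question was which PAM3 responses were larger, smaller or opposite in direction after 25HC. Its value for a gene is the log2 change from rest to PAM3 in 25HC-treated cells minus the same change in untreated cells. An interaction of 1 on this log2 scale means that the ratio of PAM3 to rest was 2 times as large with 25HC as without it. The members are 12 of the 18 libraries of the study, chosen by their labels alone: B6 macrophages left untreated and at rest, treated with 25HC (5 uM, 18 hours) and at rest, untreated with PAM3 (300 ng/mL), and treated with both, each from mice 1, 2 and 3. The remaining 6 libraries, from Ch25h-/- macrophages without 25HC at rest and with PAM3, entered the fit of the spread and are used below only where named. Ch25h encodes the enzyme that makes 25HC. All 12 B6 libraries come from cells of 1 mouse strain with Ch25h intact, so cells not given 25HC could still make it. The stimulation time is labelled 18 with PAM3 and 0 at rest, with no unit. The labels do not say whether resting cells were cultured as long, or whether 25HC stayed in the medium during stimulation. A difference in length of exposure between the 25HC libraries at rest and with PAM3 therefore cannot be told apart from the interaction.

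Polyadenylated RNA was sequenced with a stranded kit and counted per gene. The B6 libraries held from 23729356 to 28386624 counts after 25HC at rest and from 30753685 to 150440297 counts in the other 3 groups. Mitochondrial genes took 1.11% to 1.79% of counts in the 12 B6 libraries. Markers of macrophages (Csf1r, Emr1, Itgam, Cd68, Lyz2 and others) summed to between 30600 and 69300 CPM (counts scaled to library size, the unit of all levels below) in every library, and the T-cell markers Cd3e and Cd3g were at 0 counts in all. Of the variance over the 12 libraries, the first component held 69.3% and separated PAM3 from rest. The second held 17.1% and placed the 3 libraries with both agents (-50 to -28.4) apart from the 3 with PAM3 alone (43 to 65.3). Both resting libraries of mouse 2 stood apart from their replicates on the third component (6.43%). Untreated cells of mouse 2 scored 48.2, against 3.62 and 21.7 for mice 1 and 3, and its 25HC-treated cells scored -5.64, against -40.9 and -37.6. The value without mouse 2 is given where it ends a call or moves a count by over 1.5 times. In bulk RNA, fewer cells of a type and less RNA per cell cannot be told apart.

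PAM3 is a synthetic triacylated lipopeptide that is bound by a pair of Toll-like receptors, TLR2 with TLR1, on the macrophage surface. The receptors signal through MyD88 and IRAK kinases to NF-kB and MAP kinases, which switch on cytokine, chemokine and feedback genes. 25HC is an oxysterol that macrophages make from cholesterol. It holds back the processing of the SREBP transcription factors, which drive the genes of cholesterol and fatty acid synthesis, and it binds the LXR nuclear receptors. It is also known as an antiviral product of interferon signalling and can set off the integrated stress response, in which the factor ATF4 raises genes of amino acid supply and transfer RNA charging.

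Of 12741 genes tested, 3611 (28.3%) had an interaction called by edgeR's quasi-likelihood test (Benjamini-Hochberg adjusted p below 0.05, as for every call below), 1597 higher (12.5%) and 2014 lower (15.8%). An interaction of at least 2-fold was called higher at 725 genes (5.69%) and lower at 850 genes (6.67%). With mouse 2 left out of every group, 5110 genes were called. With the mouse as a block, 4513 were called, among them 3539 (98%) of the 3611. Of the called genes 44.2% were higher, and 54.5% were when genes of low count were kept in the fit. Without the library of both agents of mouse 1 or mouse 3, 2351 or 2288 genes were called, 1240 or 1189 of them lower, and without untreated rest of mouse 3 1322 were lower. The median interaction over all tested genes was -0.08. In 3600 (99.7%) of the called genes the interaction had 1 sign in all 3 mice, as against 68.5% of all tested genes. The calls and these signs come from the same libraries. The agreement is therefore largely built into the choice of genes and is no separate evidence for the calls. Removal of any 1 of the 12 libraries left 2094 (58%) called each time, and the genes given below with a test were among these unless another value is stated. The p-values measure the spread between libraries of these mice.

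The shares of genes called in the interaction (12.5% higher and 15.8% lower) and in each of the 4 simple contrasts are the background for the gene groups below. A list count near its background share is not a result about that list. PAM3 in untreated cells raised 31.3% of tested genes and lowered 30.8%. PAM3 in 25HC-treated cells raised 28.5% and lowered 30.4%. 25HC at rest raised 14.8% and lowered 11.4%, and 25HC in the presence of PAM3 raised 21.5% and lowered 23.6%. These contrasts share libraries with each other and with the interaction. Of the 60 list counts of at most 6 genes (all lists but the other-cell markers, in each direction), 35 moved by over 1.5 times when 1 of the 12 libraries was left out, so such counts are descriptions. Larger counts that moved are given below with those libraries.

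The called genes were sorted by the PAM3 response with and without 25HC, as a description. A response was lost at 1261 genes (34.9% of the called), which PAM3 moved in untreated but not detectably in 25HC-treated cells: 770 rises and 491 falls. A response was gained at 1024 genes (28.4%), 553 that rose and 471 that fell only where 25HC was present, by the same test. Smaller responses in the same direction (blunted) were found at 554 genes (15.3%), 333 rises and 221 falls. Larger responses (enlarged) were found at 387 genes (10.7%), 130 rises and 257 falls. A reversed response was found at 335 genes (9.28%): 148 rose with PAM3 alone and fell with PAM3 after 25HC, and 187 did the opposite. The last 50 moved detectably in neither contrast. With the mouse as a block the enlarged class grew to 658 genes. Without mouse 2 it was also 658, with 865 blunted and 557 reversed. Single libraries moved these counts too. Without both agents of mouse 1 there were 245 enlarged, 278 blunted, 204 reversed and 647 gained responses, and without those of mouse 3 there were 239, 286, 207 and 638. Without untreated rest of mouse 3 there were 238 enlarged, 346 blunted and 220 reversed ones. Without 25HC at rest of mouse 1 or of mouse 3 there were 305 or 297 blunted and 223 reversed ones. The enlarged class held 256 without PAM3 of mouse 2, and the reversed class held 569 without PAM3 of mouse 1.

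**Figure D1:**
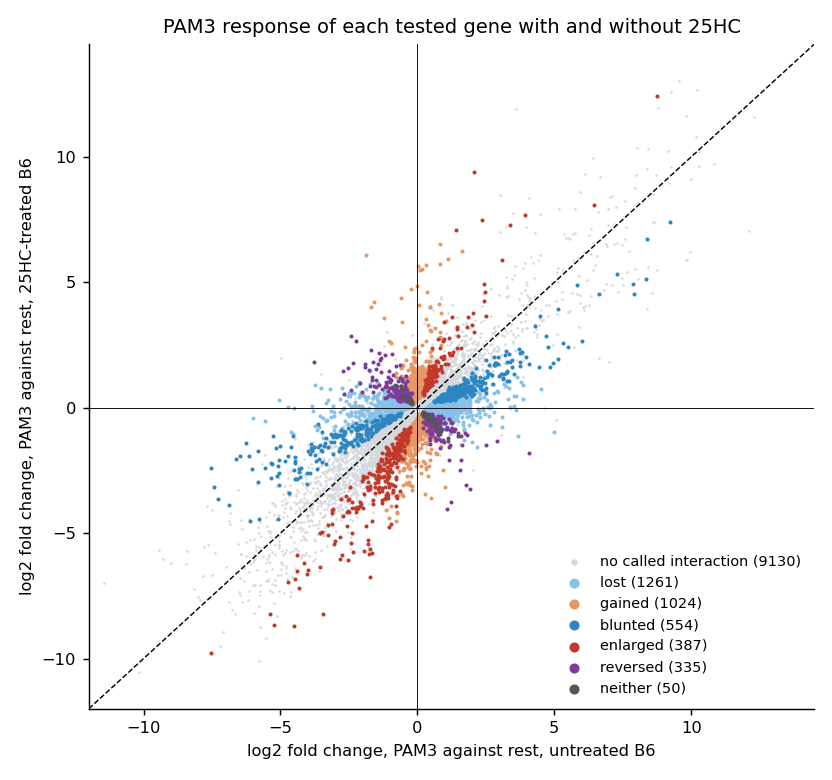
Log2 change from rest to PAM3 in untreated B6 macrophages (horizontal axis) and in 25HC-treated B6 macrophages (vertical axis), 1 point per tested gene, coloured by class, with equal responses on the dashed diagonal. The largest coloured classes are the 1261 lost and 1024 gained responses, and the 335 reversed genes lie in the upper left and lower right quadrants.

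Among the 1538 genes (12.1% of those tested) that PAM3 raised at least 2-fold in untreated cells, 923 (60%) had no called interaction, 281 (18.3%) lost the response, 274 (17.8%) were blunted, 31 (2.02%) reversed and 29 (1.89%) enlarged. Among 2323 genes (18.2%) lowered at least 2-fold, 1710 (73.6%) had no called interaction, 218 (9.38%) lost the response, 200 (8.61%) were blunted, 151 (6.5%) enlarged and 44 (1.89%) reversed. These counts pick genes on libraries that also form the interaction, so the response was also read at genes chosen in the Ch25h-/- libraries. The 1455 genes (11.4%) raised at least 2-fold by PAM3 in Ch25h-/- cells rose by a median of 1.48 (log2) in untreated B6 cells and 0.74 in 25HC-treated B6 cells. Their median interaction was -0.75, at -0.69, -0.69 and -0.93 in mice 1, 2 and 3. The interaction was called lower at 608 of them (41.8%) and higher at 20 (1.37%). The 2441 genes (19.2%) lowered at least 2-fold in Ch25h-/- cells had medians of -1.80 and -1.49 and a median interaction of 0.36 (0.42, 0.29 and 0.42 by mouse). Of these, 523 (21.4%) were called higher and 121 (4.96%) lower. At both sets the median PAM3 response was smaller after 25HC, by more at the genes that rose than at those that fell. Both sets were chosen by their response without added 25HC, which favours genes that respond without it over those that respond only with it. A smaller response after 25HC can therefore be in part built into the choice, and these medians do not describe PAM3 responses in general.

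**Figure D2:**
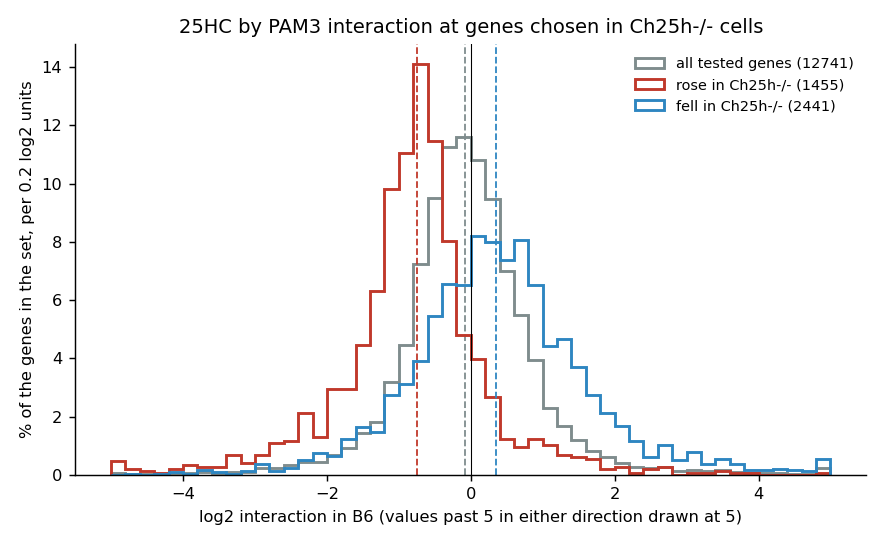
Distribution of the 25HC by PAM3 interaction in B6 (log2, horizontal axis) as a percentage of each gene set per 0.2 log2 (vertical axis), for genes that PAM3 raised or lowered at least 2-fold in Ch25h-/- cells and for all tested genes, with dashed medians. The set of 1455 rises lies to the left of the set of all genes with a median of -0.75, and the set of 2441 falls lies to the right with a median of 0.36.

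The state in which 25HC acted was also counted, over all tested genes 26.2% being called at rest and 45.1% with PAM3. Of the 3611 called genes, 2111 (58.5%) differed between 25HC-treated and untreated cells only with PAM3 and 748 (20.7%) only at rest, by the tests of each state. A further 262 (7.26%) differed in both states in 1 direction, 246 (6.81%) in opposite directions, and 244 (6.76%) in neither state. The shares over all tested genes include genes called in both states, so they are not a like background for this split. The 25HC libraries at rest were also the shallowest of the B6 groups, which limits calls at rest. The split therefore does not show in which state 25HC acted more.

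**Figure D3:**
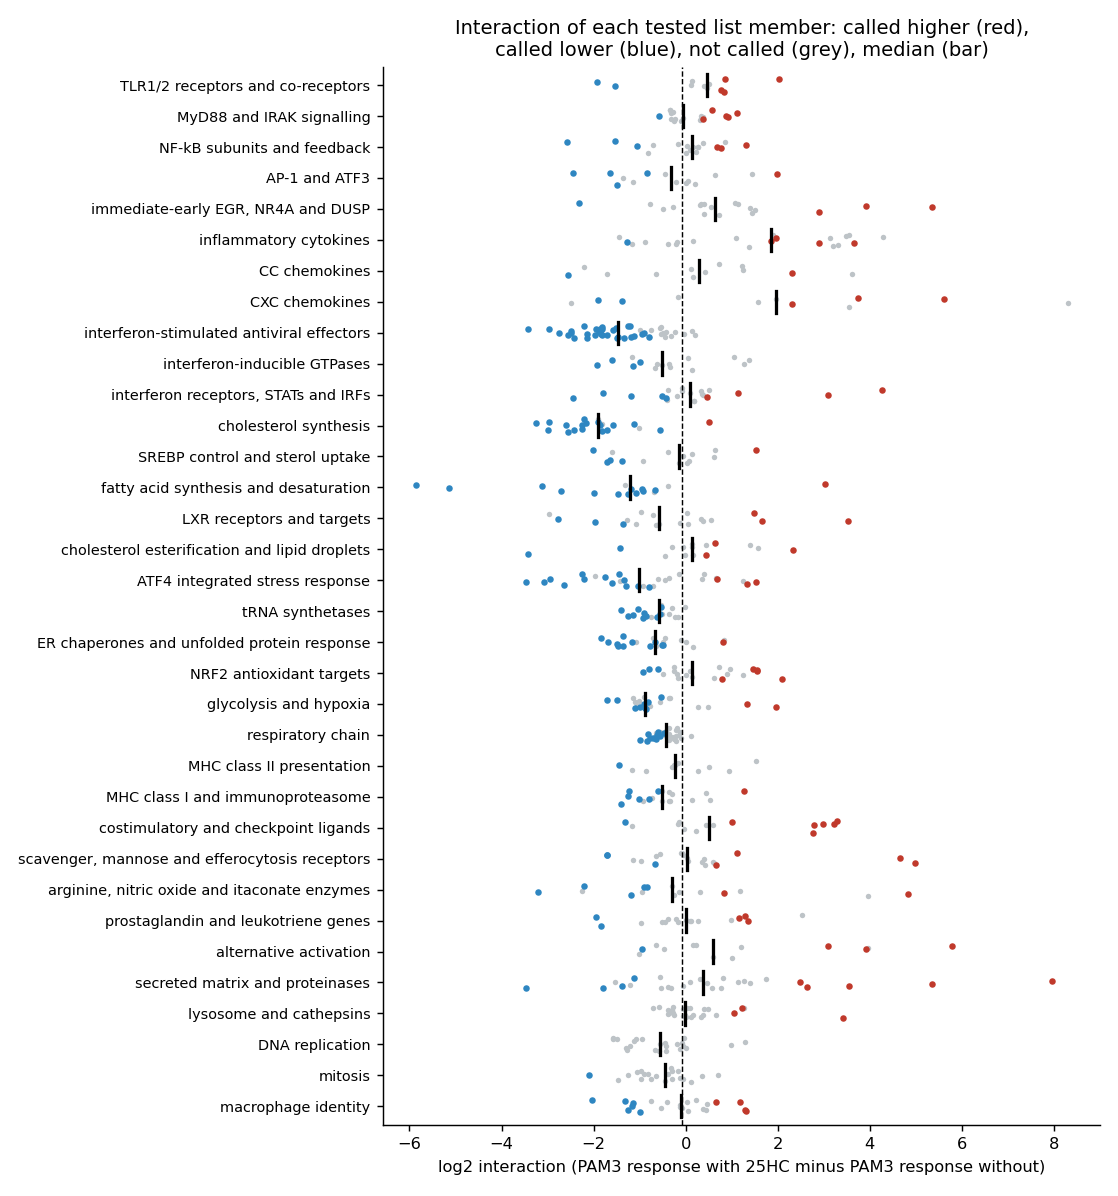
Interaction (log2, horizontal axis) of each tested member of each gene list, in red where called higher, blue where called lower and grey where not called, with a bar at the list's median and a dashed line at the median of all tested genes (-0.08). The lists of cholesterol synthesis, fatty acid synthesis and interferon effectors hold mostly blue points, 13 of 29 ATF4 targets are blue, and the lists of cytokines and CXC chemokines hold red points at large values.

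Most genes of cholesterol synthesis rose with PAM3 in untreated cells and no longer did so after 25HC. PAM3 raised 19 of 21 tested members in untreated cells and lowered none, with a median of 1.83 (log2). After 25HC it raised 4 and lowered 5, with a median of 0.02. The interaction was called lower at 17 members, with a list median of -1.90, and higher at 1, Ggps1, which makes the precursor of protein geranylgeranylation. No member was called higher without mouse 2, or in 7 of the 12 fits that left out a library. Of the 17, the response was lost at 10, blunted at 2 and reversed at 4, and a fall was gained at 1. At rest 25HC lowered 7 members, and with PAM3 it lowered 20 of 21, against 23.6% of all tested genes. Dhcr7, the reductase of the last step to cholesterol, lay at 35, 24.6 and 29.1 CPM in untreated cells at rest and at 56.1, 70.5 and 71.7 CPM with PAM3 in mice 1, 2 and 3. After 25HC its level was 13.9, 20.2 and 16.5 CPM at rest and 3.69, 4.9 and 3.261 CPM with PAM3. Thus the same stimulus raised it in every untreated culture and lowered it in every treated one, with no overlap between rest and PAM3 either way. The interaction at Dhcr7 (chr7:143823145.0-143848410.0, plus strand) was -3.25 ± 0.46 (SE; edgeR adjusted p = 0.000395). Pmvk, a kinase of the mevalonate pathway, rose from 15.2, 14.2 and 13.4 to 41.3, 43.2 and 52.4 CPM in untreated cells. The treated cells held 8.35, 10.6 and 8.95 CPM at rest and 5.44, 7.03 and 6.17 CPM with PAM3, which lay below every other group. Its interaction was -2.26 ± 0.35, adjusted p = 0.000708 by edgeR. Mvk, the kinase that precedes it in the pathway, had an interaction of -1.90 ± 0.29.

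For Hmgcs1, the synthase that makes HMG-CoA, the call (-1.13 ± 0.40, edgeR adjusted p = 0.0486) was lost in 11 of the 12 fits that left out a library, and held without untreated rest of mouse 1. The RefSeq promoter of Hmgcs1 is shown because it is the only 1 of 16 listed cholesterol genes with a promoter in the table (250 bases before to 50 after the start) that holds the sterol element core TCACNCCAC on either strand. Over all 9436 tested genes with such a promoter, 134 (1.42%) hold it. Capitals mark the match, which starts 137 bases before the transcription start, at chr13:119690101-119690400 on the plus strand of GRCm38.p6:
Hmgcs1: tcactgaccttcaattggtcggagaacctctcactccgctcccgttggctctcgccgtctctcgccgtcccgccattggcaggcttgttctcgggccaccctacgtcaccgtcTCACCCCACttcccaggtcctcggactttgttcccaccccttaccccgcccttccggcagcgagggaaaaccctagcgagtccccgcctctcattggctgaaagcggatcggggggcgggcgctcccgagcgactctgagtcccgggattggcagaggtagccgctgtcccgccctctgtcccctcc

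Fatty acid genes also responded less to PAM3 after 25HC. PAM3 raised 12 of 16 tested members in untreated cells (median 1.54), and 3 after 25HC (median -0.25). The interaction was lower at 12 members and higher at 1, the elongase Elovl7, with a list median of -1.22. With PAM3, 25HC lowered 13 of the 16. Scd1, which encodes a stearoyl-CoA desaturase (chr19:44394455.0-44407879.0, minus strand), was at 16.1, 8.49 and 16.3 CPM at rest and 232, 187 and 261 CPM with PAM3 in untreated cells. In 25HC-treated cells it was at 30.4, 25.6 and 36.4 CPM at rest, above untreated cells, and at 8.3, 7.8 and 10.4 CPM with PAM3. PAM3 thus raised Scd1 in 1 setting and lowered it in the other. The libraries given both agents overlapped those with neither, and all other groups lay apart. The interaction was -5.87 ± 1.08 (edgeR adjusted p = 0.00191). Fads2, a desaturase of polyunsaturated fatty acids, showed a mean of 30.4 ± 10.2 CPM at rest and 115 ± 9.16 CPM with PAM3 (SD, n = 3). After 25HC the means were 11.9 ± 1.71 and 1.22 ± 0.595 CPM, for an interaction of -5.14 ± 0.97. Fasn, the fatty acid synthase, rose in untreated cells from 118, 47.3 and 82 to 404, 506 and 448 CPM. It lay at 195, 139 and 231 CPM with 25HC at rest and at 145, 174 and 155 CPM with both. At Fasn, 25HC raised the resting level and lowered the level with PAM3, and the interaction was -2.71 ± 0.52 (edgeR adjusted p = 0.00237).

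Regulators and transporters of sterols were mixed. Srebf1, the factor that drives fatty acid genes, lost its PAM3 response (-1.63 ± 0.28, edgeR adjusted p = 0.00123). Nr1h3, which encodes the oxysterol receptor LXR alpha, rose from 10.4, 11.7 and 11.4 to 84.2, 104 and 102 CPM with PAM3 alone and from 15.2, 12.5 and 14.6 to 26.8, 41.8 and 24.8 CPM after 25HC. Both rises were free of overlap, and the second was smaller in each mouse (-1.97 ± 0.23, adjusted p = 0.000142 by edgeR). Scarb1, a receptor for high-density lipoprotein, moved little with PAM3 alone, from 137, 137 and 129.6 to 133, 180.2 and 182 CPM, and fell from 76.8, 89.3 and 86.2 to 27.5, 37.8 and 29.7 CPM after 25HC. Hilpda, a lipid droplet protein that restrains lipolysis, did the reverse. Its level was 4.02, 4.01 and 3.45 CPM at rest and 5.006, 4.25 and 5.18 CPM with PAM3 in untreated cells, and 9.82, 6.89 and 9.65 and 55.7, 47.7 and 64.1 CPM after 25HC. Only the libraries with both agents reached such levels, and the interaction was 2.34 ± 0.22 (edgeR adjusted p = 6.53e-05). Of the 19 LXR receptors and targets tested, 3 were higher and 3 lower (8 lower with the mouse as a block, 7 without mouse 2). In the main fit this was near the shares of all tested genes (12.5% higher and 15.8% lower). Abca1, the main cholesterol exporter, was called with an interaction of 1.49 ± 0.54 at an edgeR adjusted p of 0.0495. Its call held only without mouse 1 of untreated rest, mouse 2 of 25HC at rest or mouse 1 of PAM3.

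**Figure D4:**
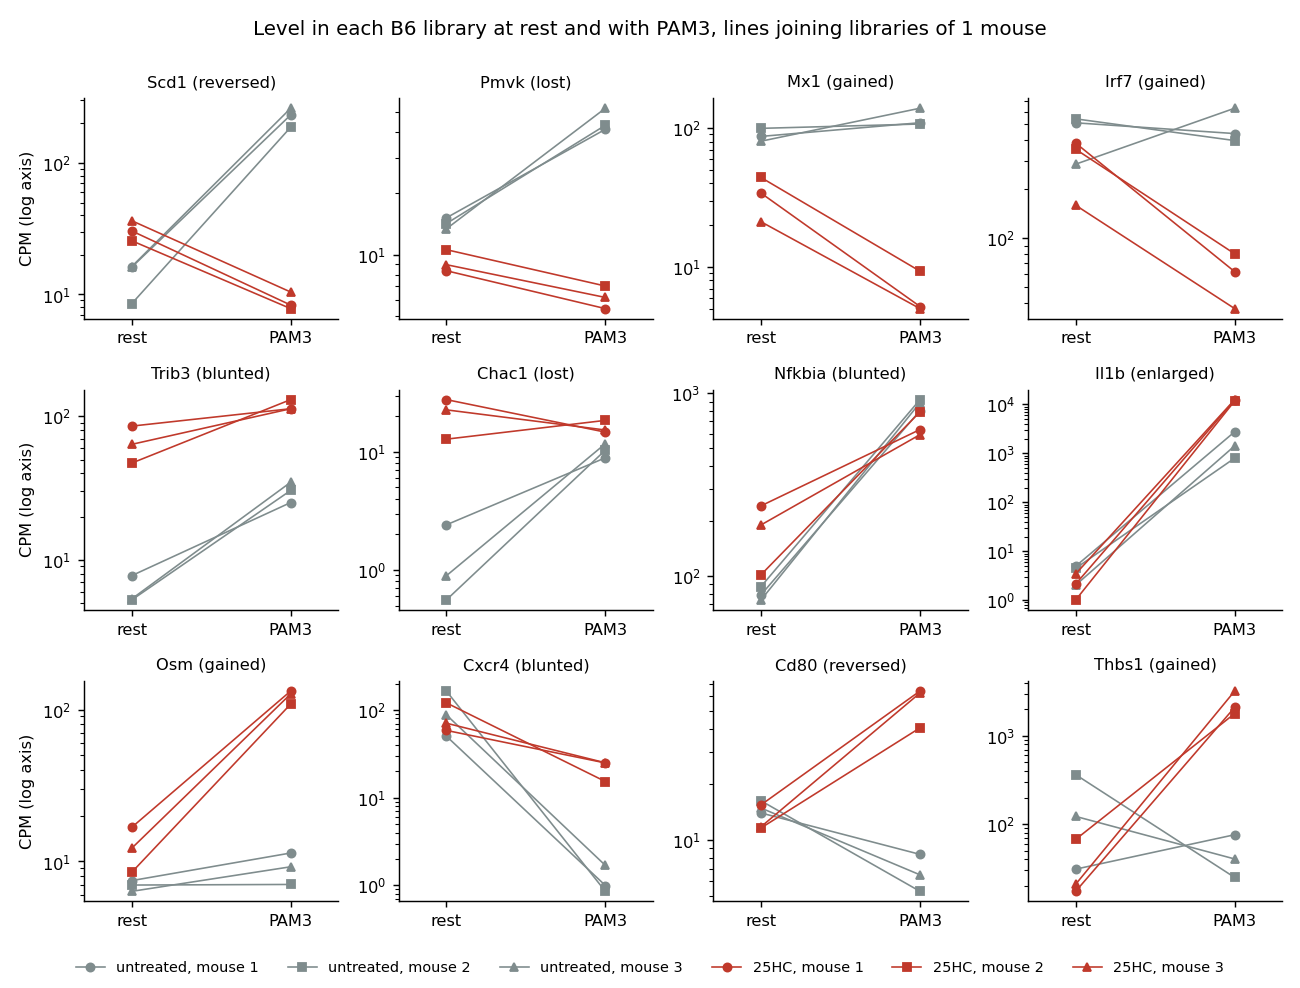
TMM-scaled CPM (log axis) of 12 genes in each B6 library at rest and with PAM3, 1 panel per gene, untreated in grey and 25HC-treated in red, with a line joining the libraries of each mouse and a marker shape for each mouse. The grey and red lines cross or run in opposite directions for Scd1, Pmvk, Mx1 and Cd80, and for Thbs1 the 3 red lines climb to between 1793 and 3230 CPM.

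Most antiviral genes of the interferon response fell with PAM3 after 25HC. In untreated cells PAM3 raised 12 and lowered 4 of the 45 tested effectors, with a median of 0.18. After 25HC it raised 1 and lowered 26, with a median of -0.82. The interaction was called lower at 31 and higher at none, with a list median of -1.47, and 17 of the 31 were falls seen only with 25HC. 25HC lowered 18 of the 45 at rest and 41 with PAM3. Mx1, a gene of the Mx family of GTPases (chr16:97447035.0-97462907.0, minus strand), lay at 87.1, 99.5 and 80.5 CPM in untreated cells at rest and 109, 107 and 139 CPM with PAM3. With 25HC it lay at 34, 44.1 and 21.2 CPM at rest and 5.2, 9.33 and 5.02 CPM with PAM3. No groups overlapped: untreated cells with PAM3 were highest, then untreated and 25HC-treated cells at rest, and cells given both were lowest. The interaction was -2.74 ± 0.45 (edgeR adjusted p = 0.00103). Ifit3, whose protein works with Ifit1 to bind viral RNA, held 109, 134 and 76.2 CPM at rest and 60.7, 49.9 and 111 CPM with PAM3 in untreated cells. It held 45.9, 57.6 and 21.4 CPM at rest and 3.05, 5.21 and 2.52 CPM with PAM3 after 25HC. The untreated groups overlapped, and the group given both agents was below all others, with an interaction of -2.97 ± 0.65 (edgeR adjusted p = 0.00496). Ifit1 was reversed: it rose from 83.8, 88.1 and 61.6 to 212, 139.9 and 210.0 CPM without 25HC and fell from 45.9, 44.7 and 22.9 to 20.3, 25.6 and 13.2 CPM with it, in every mouse. Members of the Ifit, Oas and Mx families share sequence, and how reads that match several genes were counted is not stated in the labels or notes.

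The Ifit3 promoter is shown because 17 of 32 listed effectors with a RefSeq promoter (53.1%) hold the interferon element core (GAAA, 2 bases of any kind, GAAA) on either strand, as against 367 of all 9436 (3.89%). Among all genes with a called interaction, 71 of 1478 lower ones (4.8%) and 45 of 1196 higher ones (3.76%) hold it. The Ifit3 promoter holds 2 matches, 156 and 122 bases before the start, which lie on the opposite strand and are in capitals, at chr19:34583279-34583578 (plus strand, GRCm38.p6):
Ifit3: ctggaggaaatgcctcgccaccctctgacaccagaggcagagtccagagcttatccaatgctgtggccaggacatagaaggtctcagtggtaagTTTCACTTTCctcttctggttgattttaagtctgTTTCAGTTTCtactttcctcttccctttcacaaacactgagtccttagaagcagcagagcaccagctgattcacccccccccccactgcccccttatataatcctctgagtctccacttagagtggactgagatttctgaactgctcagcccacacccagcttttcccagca

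The receptors and transcription factors of the pathway were mixed in direction. Irf7, which amplifies interferon genes, was at 512, 541 and 285 CPM at rest and 439, 398 and 629 CPM with PAM3 in untreated cells, and at 384, 352 and 159 and 62.3, 80.2 and 36.9 CPM after 25HC. Its untreated groups overlapped, and its 25HC groups did not (-2.45 ± 0.59, edgeR adjusted p = 0.00808). Of 21 receptors, STATs and IRFs, 5 were lower, among them Irf7, Stat2, Irf9 and Ifngr2, and 4 higher (Cish, Irf4, Jak2 and Ifnar2). Over all tested genes 15.8% were lower and 12.5% higher, so these counts were near the background. The median interaction of the list was 0.105. The lower count was 3 with DESeq2's size factors. Each count dropped to 2 or 3 when 1 of 6 or 7 of the 12 libraries was left out. Among 15 inducible GTPases 4 were lower and none was higher (median -0.52). Of these Igtp reversed (-1.59 ± 0.26). In the class I antigen presentation list 6 of 18 were lower (10 without mouse 2) and 1 higher (median -0.51), the lower ones including Psme2, a subunit of the proteasome activator. Psme2 rose from 21.9, 22.3 and 20.6 to 96.7, 92.9 and 126 CPM without 25HC and from 29.5, 21.1 and 22.4 to 44, 49.3 and 41.4 CPM with it, a smaller rise in each mouse (-1.40 ± 0.22).

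Most stress genes that ATF4 controls started higher after 25HC, and their median fold rise with PAM3 was smaller. 25HC at rest raised 24 of 29 tested members (median 1.5), against 14.8% of all tested genes. PAM3 raised 24 in untreated cells (median 1.77) and 13 in treated cells (median 0.86). The interaction was lower at 13 and higher at 3, with a list median of -1.01. At 10 of these 16 genes 25HC changed the level at rest only. The summed level of the list was 767.7 to 892 CPM at rest and 1881 to 2205 CPM with PAM3 in untreated cells. After 25HC it was 1748 to 2513 CPM and 4261 to 4511 CPM, so in CPM the sum rose more with 25HC. Trib3, a pseudokinase that feeds back on ATF4 (chr2:152337422.0-152344032.0, minus strand), was at 7.76, 5.25 and 5.34 CPM at rest and 25.1, 30.5 and 34.7 CPM with PAM3 in untreated cells. After 25HC its levels were 85.4, 47.2 and 63.7 CPM and 113, 131 and 113 CPM. Each group lay apart from the others, and both agents together gave the highest level, yet the fold rise was smaller with 25HC (-1.45 ± 0.33, edgeR adjusted p = 0.00588). On the linear scale the sign was opposite: PAM3 added on average 29.4 CPM more with 25HC than without. Atf4 itself behaved likewise, with an interaction of -0.80 ± 0.26 (edgeR adjusted p = 0.0333, called only without mouse 1 of untreated rest or of PAM3, or mouse 2 of 25HC at rest or of both agents) and a linear excess of 79.2 CPM. A linear interaction of the other sign was found at 128 (3.54%) of the 3611 called genes, 106 of them lower on the log2 scale and higher in CPM.

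Chac1, an enzyme that breaks down glutathione (chr2:119351229.0-119354381.0, plus strand), rose in untreated cells from 2.41, 0.557 and 0.893 to 8.91, 10.3 and 11.7 CPM. In 25HC-treated cells it was already at 27.7, 12.8 and 22.7 CPM at rest and lay at 14.7, 18.5 and 15.3 CPM with PAM3. Those treated groups overlapped, with a rise in mouse 2 and a fall in mice 1 and 3, and the interaction was -3.46 ± 0.70 (edgeR adjusted p = 0.00311). Psph, the last enzyme of serine synthesis, was reversed (-1.60 ± 0.31), and Aldh1l2, a mitochondrial folate enzyme, was lower by -2.25 ± 0.42. Ppp1r15a, the phosphatase subunit that ends the stress response, went the other way: its mean rose from 41.5 ± 4.05 to 118 ± 5.92 CPM with 25HC, and was 22.8 ± 3.3 and 25.6 ± 3.184 CPM (SD, n = 3) without it. The Ppp1r15a interaction was 1.34 ± 0.21 (edgeR adjusted p = 0.000814). The promoter of Chac1 is shown for the composite element TTGCATCA bound by ATF4 with C/EBP partners, which 4 of 26 listed ATF4 targets (15.4%), 4 of 10 synthetases (40%) and 79 of all 9436 promoters (0.837%) hold. Capitals mark the match on the plus strand, 193 bases before the start, at chr2:119350992-119351291 (GRCm38.p6):
Chac1: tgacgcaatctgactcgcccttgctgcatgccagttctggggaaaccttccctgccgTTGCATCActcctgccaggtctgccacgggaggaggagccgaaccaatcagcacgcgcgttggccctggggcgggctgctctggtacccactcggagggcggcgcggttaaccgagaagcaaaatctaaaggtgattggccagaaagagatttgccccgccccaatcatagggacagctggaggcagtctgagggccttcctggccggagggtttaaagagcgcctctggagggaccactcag

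Transfer RNA synthetases, which load amino acids and are ATF4 targets in part, had 10 of 18 members lower and none higher (median -0.59). That count was 5 or 6 when 1 of 7 libraries was left out: untreated at rest of mouse 2 or 3, 25HC at rest of mouse 1 or 3, PAM3 of mouse 3, and both agents of mouse 1 or 3. Aars, the alanine enzyme, was at 136, 74.4 and 96.8 CPM at rest and 358, 385 and 438 CPM with PAM3 untreated, and at 357, 229 and 318 and 529.7, 546 and 508 CPM after 25HC. PAM3 raised it without overlap in both settings, by less after 25HC (-1.14 ± 0.31, edgeR adjusted p = 0.0137). Chaperones of the endoplasmic reticulum had 11 of 21 members lower and 1 higher (median -0.66, 7 lower without both agents of mouse 1). PAM3 raised 17 of the 21 untreated and 4 after 25HC. Hyou1, a chaperone of the HSP70 family, rose from 170.5, 84 and 124 to 433, 446 and 499 CPM untreated and went from 313, 267 and 337 to 373, 423 and 409 CPM after 25HC. All 3 treated libraries with PAM3 were above the treated ones at rest, but by less than in untreated cells (-1.47 ± 0.27, adjusted p = 0.00185, edgeR). Creld2, another secretory pathway protein, lost its rise: 30.3, 20.3 and 25.1 to 61.2, 77 and 87.5 CPM untreated and 53.8, 45.1 and 59.8 to 43.2, 57.5 and 47.5 CPM treated, where the groups overlapped.

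**Figure D5:**
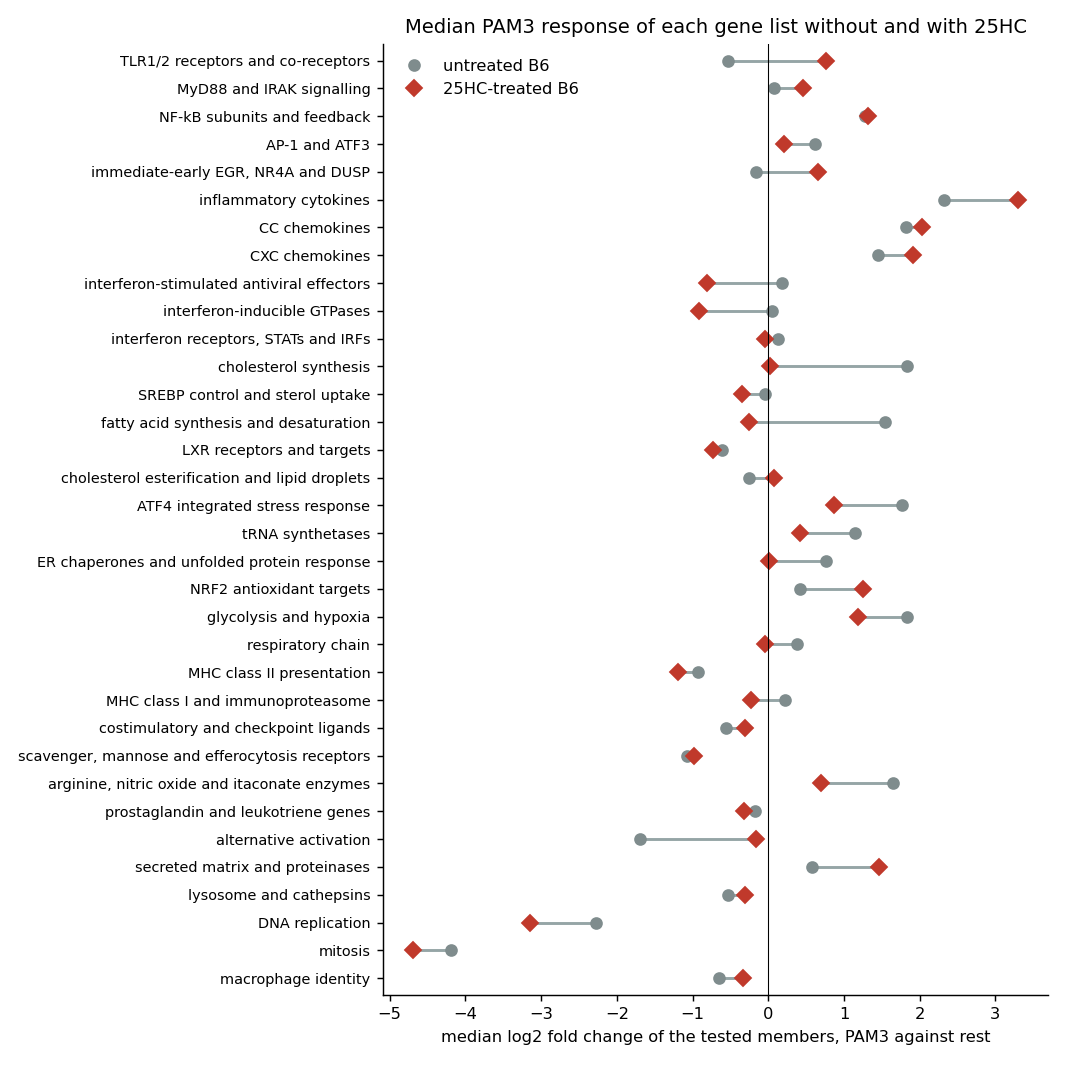
Median log2 change from rest to PAM3 over the tested members of each gene list (horizontal axis), in untreated cells as grey circles and in 25HC-treated cells as red diamonds. For cholesterol synthesis the median moves from 1.83 to 0.02 and for interferon effectors from 0.18 to -0.82, while for inflammatory cytokines it moves from 2.32 to 3.30.

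PAM3 acts through TLR2 and TLR1, whose own genes it raised in both settings. Tlr2 was at 128, 179.6 and 145 CPM at rest and 419.8, 306 and 358 CPM with PAM3 in untreated cells, and at 273, 151 and 198 and 900.3, 892 and 913 CPM after 25HC. It rose in every mouse, and its larger rise after 25HC (0.86 ± 0.28, edgeR adjusted p = 0.0319) was called in only 4 of the 12 fits without a library (without mouse 1 of untreated rest, 25HC at rest or PAM3, or mouse 2 of both agents) and was 0.43 (adjusted p = 0.175) without mouse 2. Its partner Tlr1 had no called interaction (0.13 ± 0.19, adjusted p = 0.647). It rose from 79.2, 73.7 and 84.4 to 533, 492 and 473 CPM untreated and from 29.5, 40 and 27.5 to 213, 258 and 197 CPM treated, from a lower start and to a lower end. Tlr4, the receptor for lipopolysaccharide, was reversed. Its level was 259, 174 and 263 CPM at rest and 117, 92 and 77.2 CPM with PAM3 untreated, and 147, 171 and 145 and 310.0, 189 and 285 CPM after 25HC. PAM3 lowered Tlr4 in all 3 untreated cultures and raised it in all 3 treated ones (2.04 ± 0.27, edgeR adjusted p = 0.000273).

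Downstream of the receptors, 5 of 19 MyD88 and IRAK pathway genes were higher and 1 lower (3 lower without mouse 2). The higher ones include Ikbkg, the regulatory subunit of the IkB kinase (1.13 ± 0.15), and Traf6, a ubiquitin ligase below MyD88 (0.93 ± 0.17). Of 18 NF-kB subunits and feedback genes, 3 were higher and 3 lower, the first count being 5 without 25HC at rest of mouse 1 and the second 6 without mouse 2. Over all tested genes 12.5% were higher and 15.8% lower, so the main counts were near the background. Nfkbia, the inhibitor that NF-kB induces, was at 78.7, 87.3 and 73.7 CPM at rest and 803, 922 and 888 CPM with PAM3 in untreated cells. After 25HC it was at 242, 101 and 189.9 CPM and 633, 791 and 593 CPM. It started higher and ended lower with 25HC in each mouse, without overlap in either state (-1.53 ± 0.32, edgeR adjusted p = 0.00412). Tnip3, a partner of the deubiquitinase A20, lost its rise: 164, 61.7 and 120.2 to 452, 387 and 443 CPM untreated, and 364, 164 and 308 to 163, 209 and 148 CPM treated. Its interaction was -2.57 ± 0.43. Tnfaip3, which encodes A20, was not called (0.85 ± 0.35, adjusted p = 0.0818) except with the mouse as a block (adjusted p = 0.0389, and 0.0355 by limma-voom) or without mouse 1 of 25HC at rest (0.0227) or of PAM3 (0.0244).

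Some of the secreted products rose more after 25HC. PAM3 raised 15 of 21 tested inflammatory cytokines untreated (median 2.32) and 19 after 25HC (median 3.30). The interaction was higher at 4 and lower at 1, with a list median of 1.85. Over all tested genes 12.5% were higher and 15.8% lower, so the count of higher members was not far above the background. Il1b, which encodes interleukin-1 beta (chr2:129364570.0-129371139.0, minus strand), was at 4.95, 4.49 and 2.04 CPM at rest and 2755, 798 and 1421 CPM with PAM3 in untreated cells. After 25HC it was at 2.14, 1.01 and 3.44 CPM at rest and 12230, 11730 and 12480 CPM with PAM3. The resting groups overlapped, and with PAM3 each treated library was above every untreated one (3.65 ± 1.04, edgeR adjusted p = 0.0179). Osm, oncostatin M, a cytokine of the IL-6 family, was at 7.48, 7 and 6.36 CPM at rest and 11.4, 7.06 and 9.23 CPM with PAM3 untreated, and at 16.8, 8.47 and 12.2 and 132, 109 and 127 CPM after 25HC. Both agents together took it far above every other library (2.90 ± 0.31, edgeR adjusted p = 6.53e-05). Csf1, the growth factor of macrophages, was also higher (1.85 ± 0.47). Ebi3, a subunit of IL-27 and IL-35, was the 1 lower member (-1.28 ± 0.33), with a mean of 347 ± 70.4 CPM with PAM3 alone and 150.4 ± 44.6 CPM (SD, n = 3) with both. The lower count was 3 without untreated at rest of mouse 1 and 2 without 25HC at rest of mouse 2 or with the mouse as a block. Without mouse 2 altogether, 4 were higher and 4 lower.

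Among the CXC chemokines, which draw neutrophils and T cells, 3 of 11 were higher and 2 lower. The background was 12.5% higher and 15.8% lower. There were 7 higher with the mouse as a block and 5 without PAM3 of mouse 1 or by DESeq2. Without mouse 2 there were 6 higher and 4 lower. Cxcl1, a neutrophil attractant, was at 0.742, 0.334 and 0.748 CPM at rest and 15.3, 2.5 and 9.26 CPM with PAM3 untreated. After 25HC it was at 2.69, 0.487 and 1.96 CPM at rest and 364, 237 and 450.5 CPM with PAM3. The last 3 libraries exceeded all others, and the interaction was 3.74 ± 0.97 (edgeR adjusted p = 0.0119). Ppbp and Pf4, platelet-type chemokines, were higher by 5.62 ± 0.89 and 2.32 ± 0.45. Pf4 was at 167, 77.4 and 154 CPM with PAM3 alone and 428, 365 and 469.6 CPM with both. It is also a megakaryocyte marker, but of the erythroid and megakaryocyte markers it alone exceeded 1 mean CPM. Cxcl10, an interferon-induced attractant of T cells, was lower (-1.90 ± 0.52, edgeR adjusted p = 0.0149). The Cxcl1 promoter is shown because it holds an NF-kB motif (GGGA, 1 base of any kind, TTTCC), 71 bases before its start. On either strand, 2 of 15 listed inflammatory cytokines (13.3%) and 56 of all 9436 promoters (0.593%) hold this motif. Its share among the CXC chemokines was not counted. Among all genes with a called interaction, 9 of 1196 higher ones (0.753%) and 7 of 1478 lower ones (0.474%) hold it. Capitals mark the match at chr5:90890995-90891294 (plus strand, GRCm38.p6):
Cxcl1: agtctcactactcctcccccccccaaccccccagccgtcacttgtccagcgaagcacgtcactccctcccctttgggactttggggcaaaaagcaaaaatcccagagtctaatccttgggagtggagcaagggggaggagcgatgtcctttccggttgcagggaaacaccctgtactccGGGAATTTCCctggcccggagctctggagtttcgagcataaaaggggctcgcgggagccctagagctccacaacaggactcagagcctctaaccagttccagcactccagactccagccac

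Several well-known products of stimulated macrophages did not pass the interaction test. Il6 went from 0.154, 0.0139 and 0 CPM at rest to 66, 9.41 and 21.4 CPM with PAM3 untreated, and from 0.0792, 0.0375 and 0.0965 to 647, 562 and 689 CPM after 25HC. With PAM3 the treated libraries were all above the untreated ones (25HC with PAM3, 4.30 ± 0.71, edgeR adjusted p = 0.000188). At rest few counts were behind each value, and the interaction was 3.50 ± 3.12 (adjusted p = 0.418). Il10 had an interaction of -0.21 ± 0.42, and Il12b one of 3.21 ± 2.08 (adjusted p = 0.73 and 0.259, and 0.0349 for Il12b with the mouse as a block). Tnf, at -1.46 ± 0.67, and Ptgs2, the inducible cyclooxygenase, at 2.52 ± 1.36, were called with the mouse as a block (adjusted p = 0.0459 and 0.0113). Tnf was also called without untreated rest of mouse 1 (0.0327) or 25HC at rest of mouse 2 (0.0262), and was -1.74 (0.00878) without mouse 2. Arg1, which splits arginine, had an interaction of 3.97 ± 1.46 with an edgeR adjusted p of 0.0535, 0.00111 with the block and 0.038 without both agents of mouse 2. It was also called by DESeq2 (0.00998), limma-voom (0.0377) and edgeR on the 12 B6 libraries alone (0.0148). Nos2, the inducible nitric oxide synthase, had an interaction of -2.24 ± 1.75 and an adjusted p of 0.35 by edgeR. Ch25h was at 20.4, 3.16 and 10.2 CPM at rest and 3.55, 1.67 and 2.14 CPM with PAM3 untreated, and at 40.8, 16.3 and 25.8 and 4.92, 3.264 and 3.86 CPM after 25HC. Its level was lower with PAM3 in every mouse, and no interaction was called (-0.58 ± 0.71, edgeR adjusted p = 0.568).

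A set of genes that PAM3 lowered strongly kept more of their expression after 25HC. Cxcr4, the receptor for the chemokine CXCL12 (chr1:128588199.0-128592293.0, minus strand), fell in untreated cells from 50.4, 165 and 88.2 to 0.996, 0.854 and 1.69 CPM. After 25HC it fell from 58.5, 121 and 70.7 to 24.9, 15.3 and 25 CPM. The resting groups overlapped, and with PAM3 the treated libraries lay far above the untreated ones (4.55 ± 0.64, edgeR adjusted p = 0.000395). Slc40a1, the iron exporter ferroportin, went from 345, 697 and 427 to 9.27, 4.41 and 5.6 CPM untreated and from 104, 237 and 95.7 to 70.1, 45.1 and 50.9 CPM treated. 25HC lowered it at rest in each mouse and raised it with PAM3 in each mouse (4.87 ± 0.55, edgeR adjusted p = 0.00011). Clec7a, the beta-glucan receptor Dectin-1, lost its fall. It was at 39.7, 108 and 80.1 CPM at rest and 7.48, 3.73 and 6.245 CPM with PAM3 untreated, and at 26.5, 49 and 34.6 and 71.7, 53.6 and 83.6 CPM treated (4.65 ± 0.69). Further genes of this kind were Sox4, a transcription factor (5.37 ± 0.57), Fbxo32, a ubiquitin ligase of muscle atrophy (4.11 ± 0.54), Egr2, an early growth response factor (3.93 ± 0.72), Cd83, a surface protein of activated antigen-presenting cells (2.99 ± 0.32), and Atp6v0d2, a subunit of the proton pump (3.43 ± 0.45).

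Costimulatory and checkpoint ligands, which macrophages show to T cells, included reversed and enlarged responses. Of 14 tested costimulatory and checkpoint ligands, 6 were higher and 1 lower (2 without mouse 2; median 0.52), and the 6 was the same in each of the 12 fits that left out a library. Cd80, which binds CD28 and CTLA-4 on T cells, fell from 14, 16.3 and 14.9 to 8.35, 5.26 and 6.47 CPM with PAM3 alone and rose from 15.5, 11.6 and 11.8 to 64.1, 40.5 and 62.6 CPM after 25HC. At rest the groups overlapped, and with PAM3 the treated libraries were highest of all (3.28 ± 0.34, edgeR adjusted p = 6.53e-05). Cd274, which encodes the checkpoint ligand PD-L1, rose from 19.3, 41.4 and 24.1 to 330.2, 195 and 206 CPM untreated and from 17.1, 17.5 and 13.7 to 1012, 858 and 994 CPM treated. This larger rise was among the largest of the enlarged ones (2.79 ± 0.47, edgeR adjusted p = 0.00115). Ccr1, a receptor for CC chemokines, was reversed: 68.1, 50.2 and 60.4 to 27.8, 10.9 and 19.2 CPM untreated and 44.8, 71.4 and 44.6 to 187, 152 and 228 CPM treated. Among the CC chemokines, Ccl6 was reversed in the same sense (2.32 ± 0.37). Nox1, a superoxide-generating oxidase, was reversed the other way. Its level was 6.99, 2.41 and 3.82 CPM at rest and 9.83, 9.16 and 8.89 CPM with PAM3 untreated, and 28.1, 10.7 and 18.1 and 1.39, 1.12 and 0.948 CPM treated. 25HC raised it at rest and took it to its lowest level with PAM3, at -5.13 ± 0.68 (edgeR adjusted p = 0.000267). Cd244, a receptor of natural killer and myeloid cells, rose from 6.8, 2.03 and 4.3 to 16, 34.2 and 22.8 CPM untreated and went from 5.34, 4.23 and 6.24 to 1.74, 1.75 and 2.22 CPM treated, a fall in every mouse.

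Some genes rose only where both agents were present. Thbs1, the matrix protein thrombospondin-1, was at 30.8, 364 and 122 CPM at rest and 75.8, 24.8 and 40.2 CPM with PAM3 in untreated cells. After 25HC it was at 17.3, 67 and 20.8 CPM at rest and 2109, 1793 and 3230 CPM with PAM3. The mice differed widely at rest, mouse 2 being highest in both settings, but the 3 libraries with both agents exceeded all 9 others (7.97 ± 1.51, edgeR adjusted p = 0.00219). Ahr, the aryl hydrocarbon receptor, was at 23.2, 4.4 and 7.37 CPM with PAM3 alone and 182, 129.7 and 168 CPM with both, and at most 15.9 CPM in every resting library (5.39 ± 0.80). Clec4n, which encodes the fungal receptor Dectin-2, was at 24.9, 5.24 and 12.8 CPM with PAM3 alone and 442, 254 and 403 CPM with both (4.98 ± 0.75, edgeR adjusted p = 0.000636). Arg2, the mitochondrial arginase, rose to 58.3, 33.7 and 45.7 CPM with both and was at most 2.86 CPM elsewhere (4.83 ± 0.97). Feedback inhibitors of cytokine receptors were among these genes: Cish was higher by 4.26 ± 0.75 and Socs2 by 5.80 ± 0.98. The neutrophil-type collagenase Mmp8 (5.35 ± 0.71) and the nuclear receptor Nr4a3 (5.35 ± 0.83) had interactions of similar size. Sqstm1, the autophagy receptor p62, was at 526, 659 and 528 CPM at rest and 609.5, 449 and 621 CPM with PAM3 untreated, and at 1438, 944 and 1184 and 3540, 3164 and 2958 CPM after 25HC. 25HC raised it in both states, more with PAM3 (1.47 ± 0.26, edgeR adjusted p = 0.00152). Of 21 antioxidant genes under NRF2 tested, 5 were higher and 3 lower, against 12.5% and 15.8% of all tested genes. With the mouse as a block 9 were higher, and without mouse 2 there were 9 higher and 5 lower.

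Falls that were deeper after 25HC were the larger part of the enlarged class. Ckb, the brain-type creatine kinase, fell from 488, 405 and 405 to 132, 339 and 277 CPM untreated and from 709, 535 and 702 to 37.5, 55.3 and 36.4 CPM treated. No group overlapped another, and the fall was the larger after 25HC in each mouse (-3.11 ± 0.44, edgeR adjusted p = 0.000427). Cd180, a receptor related to TLR4 that restrains its signalling, fell from 435, 273 and 382 to 159.9, 186 and 178 CPM untreated and from 293, 318 and 303 to 53.9, 50 and 47.5 CPM treated. Only the resting groups overlapped, and the libraries given both agents were lowest (-1.54 ± 0.34, adjusted p = 0.00519 by edgeR).

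In the lists of energy metabolism a minority of genes had a called interaction, most of it lower. PAM3 raised 23 of 26 tested glycolysis and hypoxia genes untreated (median 1.83) and 21 after 25HC (median 1.18). The interaction was lower at 9 and higher at 2 (median -0.88). The 9 became 16 with the mouse as a block and 21 without mouse 2. It became 4 or 5 when 1 of 6 libraries was left out, namely 25HC at rest or both agents of mouse 1 or 3, or untreated rest or PAM3 of mouse 3. Hk2, a hexokinase, rose from 32.4, 24.1 and 25.6 to 272, 266 and 265 CPM untreated and from 70, 41.9 and 63.3 to 189.7, 217 and 205 CPM after 25HC. Both rises were free of overlap, the second from a higher start to a lower end (-1.49 ± 0.24, edgeR adjusted p = 0.00101). Of 30 respiratory chain genes, 10 were lower and none higher (median -0.43), such as the oxidase subunit Cox5a (-0.99 ± 0.19). That count was 19 without mouse 2, 18 without PAM3 of mouse 1, 6 without PAM3 of mouse 3, and 5 without both agents of mouse 1 or of mouse 3. Slc13a3, a carrier of dicarboxylic acids, rose from 2.81, 3.16 and 2.87 to 355, 1140 and 637 CPM untreated and from 1.7, 1.76 and 1.83 to 24.9, 73.7 and 24.3 CPM treated, a blunted rise in each mouse (-3.37 ± 0.83). Gpr84, a receptor for medium-chain fatty acids, was raised by 25HC alone, from 10.3, 3.86 and 5.34 to 104, 18.6 and 58.9 CPM, and was at 118, 78.4 and 82.2 CPM with PAM3 and 77.3, 84.3 and 67.4 CPM with both (-3.52 ± 0.80). The 2 groups with PAM3 overlapped, and the difference lay at rest.

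Cell cycle genes fell with PAM3 in both settings. PAM3 lowered 19 of 23 tested DNA replication genes untreated and 22 after 25HC, and all 21 mitosis genes both times. In the replication list, with a median interaction of -0.55, none was called lower by edgeR or DESeq2 (1 had an unadjusted p below 0.05), and none in any of the 12 fits without 1 library. With the mouse as a block 1 was called lower, and without mouse 2 there were 10. The mitosis list had a median of -0.45, with 1 gene called lower (5 with the mouse as a block or without mouse 2, and 0 in 11 of the 12 fits without a library). Of 11 class II presentation genes 1 was lower (2 with the block, 3 without mouse 2). H2-Aa, a class II chain, was not called (-1.17 ± 0.62, edgeR adjusted p = 0.164), but was with the mouse as a block (adjusted p = 0.0147), with the 12 B6 libraries alone (0.0114) and without mouse 2 (0.00453). Of 22 macrophage identity genes, 4 were higher and 6 lower, against 12.5% and 15.8% of all tested genes. The lower count was 3 in 7 of the fits that left out a library, and the higher count was 2 without 25HC at rest of mouse 1. Spi1, the lineage factor PU.1, was among the lower ones (-1.16 ± 0.29).

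Markers of other cell types summed to far less than those of macrophages. Those of T and NK cells summed to 11.7 to 26.8 CPM in untreated cells at rest, 5.27 to 10.2 with 25HC, 1.81 to 2.70 with PAM3 and 1.25 to 1.53 with both. The resting sums of T and NK markers were nearly all Cd4, at means of 17.04 CPM untreated and 5.912 CPM with 25HC. Those of B cells summed to 13.8 to 20.2, 7.09 to 11.7, 8.89 to 19.0 and 2.09 to 3.33 CPM in the same order, nearly all from Cd79b and Cd22. Those of neutrophils stayed between 2.81 and 9.59 CPM, and those of mast cells and basophils between 0.113 and 0.54 CPM. The dendritic cell sum fell to 154 to 228 CPM with both agents from 487 to 759 CPM with PAM3 alone, but was nearly all Bst2, which is also an interferon-stimulated gene. Sums for fibroblasts (1.38 to 10.4 CPM), endothelial cells (25.5 to 99.2 CPM) and osteoclasts (147 to 348 CPM) varied over the 12 libraries. The part of these cells in the interactions was not tested.

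The Ch25h-/- libraries gave the same PAM3 contrast in cells without Ch25h. No gene had a called interaction of PAM3 with genotype in edgeR's quasi-likelihood test, 598 (4.69%) had an unadjusted p below 0.05, and DESeq2 called 2. This comparison shares the untreated B6 libraries with the 25HC interaction, so values are only set side by side. At Dhcr7 the PAM3 response was 0.99 in Ch25h-/- cells, 1.16 in untreated B6 and -2.08 in 25HC-treated B6 cells (log2). At Mx1 the 3 values were 0.69, 0.41 and -2.33, and at Cxcr4 they were -7.86, -6.49 and -1.94. At Il1b they were 5.93, 8.76 and 12.42, and at Thbs1 -4.41, -1.88 and 6.09. For these 5 genes, chosen after their values were seen, the Ch25h-/- value was nearer to that of untreated than to that of 25HC-treated B6 cells.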

How the data were processed

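The authors deposited 1 table of raw read counts per gene for the whole series, with 18 columns named as the samples' titles, and 30530 genes. Per the submitters' processing notes, the tools were FastQC 0.11.9, GSNAP 2018-07-04, featureCounts of Subread 1.5.2 and edgeR 3.26.8, with the builds GRCm38 and mm10. Their settings, including strand and reads that match several genes, are not stated there. Genes overlapping on the opposite strand, and families of near-identical members, are therefore uncertain.

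From the deposited counts, edgeR 4.0.16 (R 4.3.3) fitted a robust quasi-likelihood model with 1 mean for each of 6 groups of 3 libraries, 12 residual degrees of freedom, TMM scaling and filterByExpr, which kept 12741 genes. Calls were two-sided at a Benjamini-Hochberg adjusted p below 0.05 over all tested genes. The standard error was the log2 value divided by the root of F. CPM are TMM-scaled, and levels are compared within genes only. The biological coefficient of variation was 0.192. The scripts were tested on simulated counts. A call at a gene of few counts is limited by depth, and the 25HC libraries at rest were the shallowest of the B6 groups.

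The gene lists, the members and the alternatives were chosen with earlier results of these data known. Of 735 list entries, 732 were found and 673 tested. The genes named are part of 192 given by 1 rule. It takes the 5 largest interactions of each class and direction among called genes with at least 5 CPM in 1 B6 group and 1 sign in all 3 mice, up to 4 called members of each list by adjusted p, and a set of well-known genes whatever their values. Members of a list named beside its count alone came from that list. Some genes of the rule are not reported here.

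By the labels, the same number within a genotype is the same mouse, so the libraries are paired by animal. Over 18 pairs of libraries of 1 mouse, the deviations from group means had correlations from -0.162 to 0.581 (median 0.23). In 15 of the 18 pairs the correlation was above those with libraries of other mice. The remaining pairs all held untreated PAM3 of mouse 3. Its correlations with untreated rest, 25HC at rest and both agents of mouse 3 were -0.0777, 0.00334 and -0.162. The cause was not tested. Alternatives were DESeq2 1.42.0 and its size factors, limma 3.58.1 with voom, the mouse as a block, other filters, only the B6 libraries, leaving out libraries, and thinning to equal depth, the last chosen after the data were seen. Positions are from GENCODE M21 and promoters from RefSeq, both on GRCm38, and 9436 tested genes matched a promoter.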

Additional observations from a re-analysis of the deposited data

How the results depend on the processing

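Genes called in the interaction numbered 3611, and from 2288 to 4481 with 1 library left out, 1575 with a fold of at least 2 required, and between 2812 (no filter on low counts) and 5110 (without mouse 2) in the other settings. Lower calls numbered from 1189 to 2481 with 1 library left out (1240 without both agents of mouse 1, 1322 without untreated rest of mouse 3), 3032 without mouse 2 and 1279 with no filter, against 2014. Higher calls ranged from 1099 to 2000 with 1 library left out. The share of higher among called genes was 44.2%, 54.5% with no filter, 46.9% with DESeq2's size factors and 40.7% without mouse 2. With 1 library left out, enlarged responses ranged from 238 to 434, blunted from 278 to 616, lost from 877 to 1491, reversed from 204 to 569 and gained from 638 to 1302. No filter gave 360 blunted responses, and leaving out mouse 2 gave 658 enlarged, 865 blunted and 557 reversed. With 1 library left out, the median interaction of genes that rose in Ch25h-/- cells ranged from -0.873 to -0.679 (-0.672 with no filter) and that of genes that fell from 0.265 to 0.476 (0.44 with no filter). The median over all tested genes was -0.0782, and 0.0432 with no filter. The cause of these shifts was not tested.

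Pairing by mouse moved the enlarged class from 387 to 658 genes as a replicate block and to 595 in limma-voom with the animal as a random effect. Beyond those and the list and gene values given beside the results, the replicate block moved no class or direction count by over 1.5 times. No setting reversed the direction of a named gene's called interaction. Of the 192 named genes, 153 kept their call, or their lack of one, in every setting where they were tested. A change of direction at a gene called in neither fit was not counted. Thinning to the smallest library, chosen after the data were seen, left 3061 genes called.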
